A study of Mus musculus with 18 samples.

Results

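The HoxD cluster holds 9 Hox genes in a row on mouse chromosome 2. Its CpG sites were taken as every CpG listed between positions 74650000 and 74770000 of chromosome 2 (GRCm38), a window of 120 kb, that had at least 10 reads in both pools of a tissue. This rule gave 1274 of the 1876099 tested sites in gonadal adipose, 1138 of 1569349 in hypothalamus and 1130 of 1628817 in liver. In all, 1284 sites were read in at least 1 tissue and 1062 in all 3 tissues.

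Reduced representation bisulfite sequencing gave the methylation levels: in this assay the enzyme MspI cuts the genome at CCGG and bisulfite then converts each unmethylated cytosine. The 18 samples came from male C57BL/6 mice aged 3 weeks, born to dams kept on a diet restricted in estrogenic isoflavones. BPA (bisphenol A, an estrogen-like plasticizer) offspring had dams given 5 mg/kg/day of BPA in corn oil by gavage on days 1 to 20 after conception, and control offspring had dams given corn oil alone. Each group held 3 samples per tissue of gonadal adipose, hypothalamus and liver, from 4 BPA litters and 3 control litters, with no record here of which sample came from which litter. The tables analysed here hold the reads of the 3 samples of a group as 1 pool, so that 6 pools were compared and the spread between animals cannot be seen. The pool numbered 1 was read as BPA and the pool numbered 0 as control, from the order of the comparison's name; no label states this numbering, and if it were reversed every BPA direction would turn round.

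Hox genes encode homeodomain transcription factors that tell cells their place along the body axis and in the limbs. The genes of a cluster are switched on in the order in which they lie on the chromosome, and Polycomb repressive complexes keep the silent ones closed. Their dense CpG islands are usually free of DNA methylation while Polycomb covers them, and they can gain it in particular tissues. HoxD is best known for limb, digit and external genital development, with Hoxd13 at its posterior end and Hoxd1 at its anterior end, and Evx2 and the long noncoding RNA Haglr within the same block.

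Summed over its measured CpGs, the Hoxd4 promoter was partly methylated and the other measured promoters were low, and 3 promoters are shown for that contrast. The sequences are RefSeq promoters of GRCm38.p6 on the plus strand, running from 250 bases before the start site to 50 bases after it. Capital CG marks each CpG site that was measured here, and all other bases are in lower case. The Hoxd4 promoter lies at chr2:74721728-74722027, the Hoxd12 promoter at chr2:74674763-74675062 and the Hoxd9 promoter at chr2:74697513-74697812.
Hoxd4 promoter: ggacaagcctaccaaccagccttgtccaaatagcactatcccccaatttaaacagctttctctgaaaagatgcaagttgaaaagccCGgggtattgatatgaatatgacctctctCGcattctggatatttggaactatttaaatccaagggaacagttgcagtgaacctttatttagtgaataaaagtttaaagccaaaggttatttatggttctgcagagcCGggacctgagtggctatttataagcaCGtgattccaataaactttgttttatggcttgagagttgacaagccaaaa
Hoxd12 promoter: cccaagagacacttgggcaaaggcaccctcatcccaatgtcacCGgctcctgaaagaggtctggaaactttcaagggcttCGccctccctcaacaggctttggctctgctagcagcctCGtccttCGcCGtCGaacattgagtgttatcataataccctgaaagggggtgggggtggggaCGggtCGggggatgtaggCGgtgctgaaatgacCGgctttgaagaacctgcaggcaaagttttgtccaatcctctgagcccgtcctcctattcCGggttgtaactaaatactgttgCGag
Hoxd9 promoter: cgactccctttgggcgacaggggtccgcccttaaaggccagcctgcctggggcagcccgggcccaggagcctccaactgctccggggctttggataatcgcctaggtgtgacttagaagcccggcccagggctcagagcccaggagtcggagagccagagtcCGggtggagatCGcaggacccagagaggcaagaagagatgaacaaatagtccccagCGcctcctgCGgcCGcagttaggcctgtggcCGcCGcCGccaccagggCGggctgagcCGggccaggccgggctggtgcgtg

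The Hoxd4 promoter holds only 4 CpGs, against 13 in the Hoxd12 promoter and 20 in the Hoxd9 promoter, and all 4 were measured in every tissue. The Hoxd4 promoter had 28.4% of reads methylated in the BPA pool and 25.6% in the control pool of gonadal adipose. In hypothalamus the level was 16% in the BPA pool and 15% in the control pool, and in liver it was 23.3% in the BPA pool and 23.7% in the control pool. Hoxd4 encodes a homeodomain factor of the anterior part of the cluster, and its promoter was thus partly methylated in all 3 tissues. The CpG at position 74721843 was the highest of the 4 in adipose, at 42.5% of 374 reads in the BPA pool and 36.1% of 316 reads in the control pool. The CpG at the start site itself, position 74721978, was the lowest in adipose, at 13.3% of 428 BPA reads and 12.1% of 404 control reads. None of the 4 was called between the BPA and control pools in any tissue.

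Among the other promoters with measured sites, the Hoxd12 promoter had the highest adipose level, at 5.18% in the BPA pool and 4.93% in the control pool. The Hoxd9 promoter had 1.37% in the BPA pool and 0.357% in the control pool of adipose, over 10 CpGs. The Hoxd1 promoter had 1.13% in the BPA pool and 0.841% in the control pool of adipose, over 22 CpGs. Within the Hoxd12 promoter the level varied between CpGs. Position 74674843 had 18.3% of 361 reads in the BPA pool and 21% of 305 reads in the control pool of adipose, while position 74674948 had 0% of 394 BPA reads and 0% of 311 control reads. Position 74675059, just past the Hoxd12 start site, had 20.9% of 225 BPA reads and 14.8% of 182 control reads in adipose. That is above the CpG at the Hoxd4 start site, so the contrast holds for whole promoters and not for each CpG. No member site fell in the promoters of Evx2, Hoxd8, Hoxd3, Hoxd3os1 or Gm14424, nor in 1 of the 2 Hoxd11 promoters, so nothing is known here of their methylation. The letters CCGG, the MspI site, which reads the same on both strands, occur in 11 of the 15 promoters of the window and in 52.8% of 32851 RefSeq promoters of 300 bases.

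Over the whole window, 11.3% of reads were methylated in the BPA pool of gonadal adipose and 10.9% in its control pool. In hypothalamus the level was 3.63% in the BPA pool and 3.07% in the control pool. In liver it was 4.07% in the BPA pool and 4.2% in the control pool. The cluster was thus more methylated in adipose than in the other 2 tissues in both pools. In all 3 tissues most sites were nearly unmethylated: sites under 10% made up 70.7% of BPA and 72.8% of control sites in adipose, 95% of BPA and 95% of control sites in hypothalamus, and 92.8% of BPA and 93.1% of control sites in liver. Of all sites tested in the genome, 35.6% were under 10% in the BPA pool of adipose. Adipose had more intermediate sites than the other tissues: 260 sites in the BPA pool and 237 in the control pool lay between 20 and 80%, or 20.4% and 18.6% of members, beside 22.2% of all tested adipose sites in either pool. Hypothalamus had 8 such sites in the BPA pool and 10 in the control pool, and liver had 20 in the BPA pool and 18 in the control pool. Those classes held 18.6% of all tested sites in the BPA pool and 18.4% in the control pool of hypothalamus, and 22.3% in the BPA pool and 22% in the control pool of liver.

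**Figure D1:**
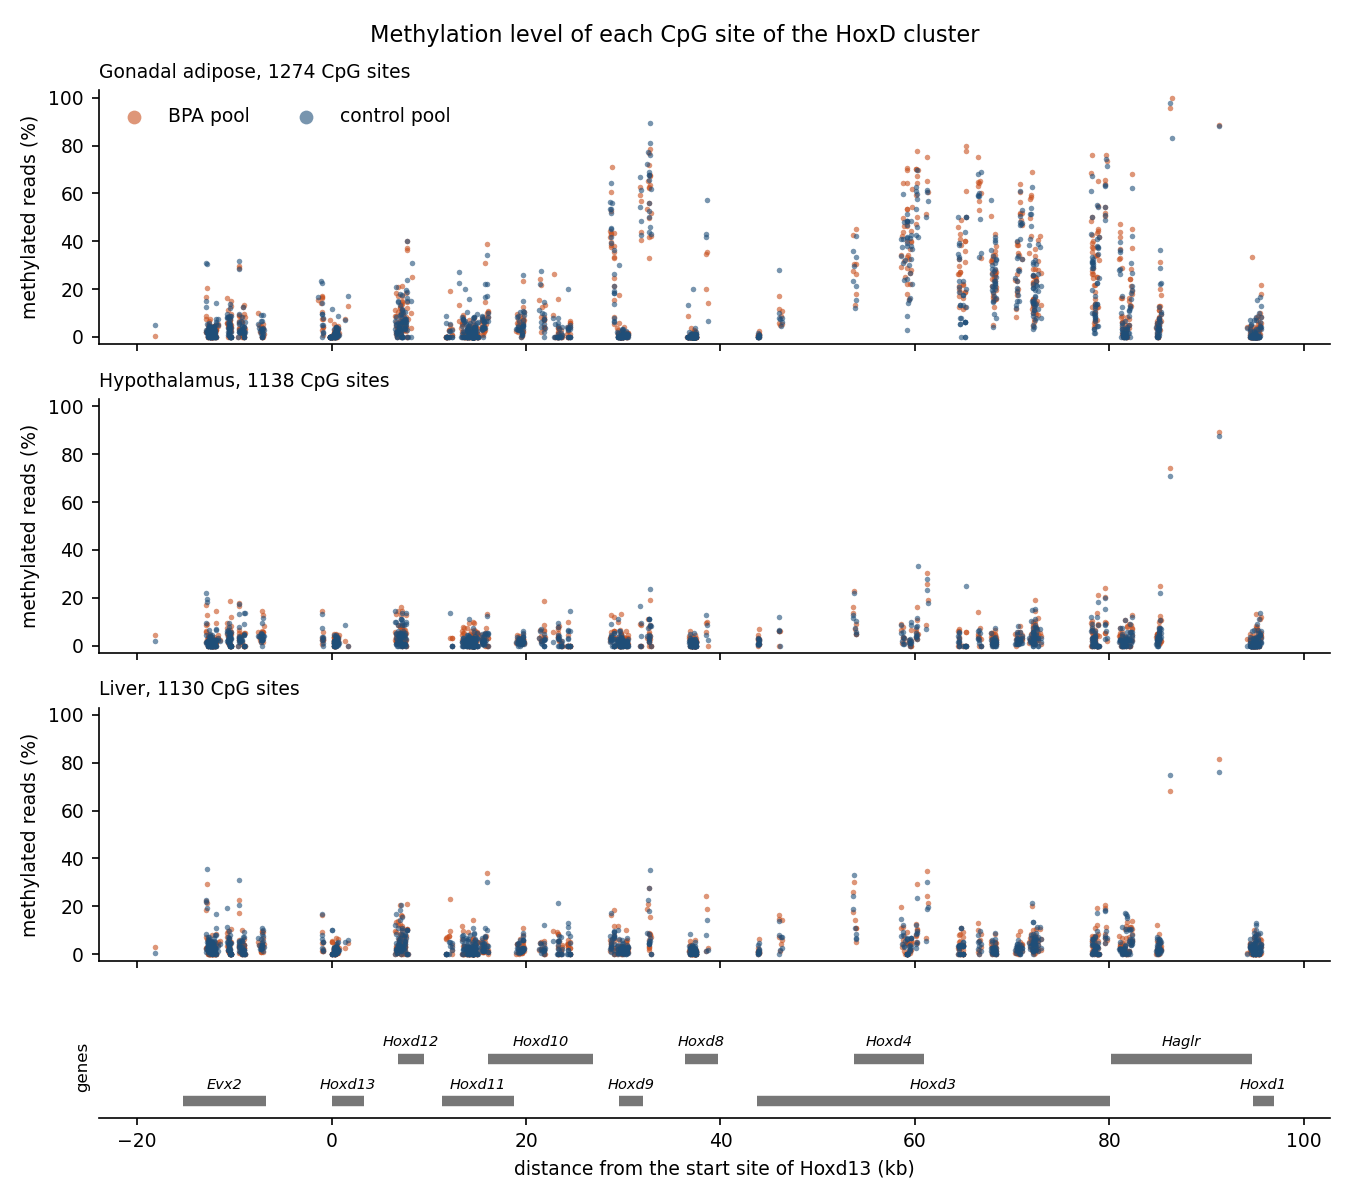
Methylated reads (%) at each CpG site of the HoxD cluster against its distance from the start site of Hoxd13 (kb), in gonadal adipose, hypothalamus and liver; BPA pools are orange, control pools blue and drawn on top, with gene models in the lowest panel. Adipose holds stretches of intermediate level, 260 sites in the BPA pool and 237 in the control pool, where the other tissues stay low.

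Median reads per member site were 182 in the BPA pool and 151 in the control pool of adipose, 121 and 117 in those of hypothalamus, and 128 and 149 in those of liver. A pool at a member site held between 10 and 814 reads. At the threshold, 17 adipose, 8 hypothalamus and 17 liver sites had exactly 10 reads in the smaller pool, while 15, 8 and 8 listed sites had 9 and were left out. Genes known for each tissue were checked by their methylation: adipocyte markers were lowest in adipose for 6 of 8 genes, hepatocyte markers lowest in liver for 6 of 8 genes, and neuron markers lowest in hypothalamus for 5 of 8 genes, in BPA and control pools alike. Other brain markers did not set hypothalamus apart: it was lowest for 2 of 5 astrocyte genes and 2 of 4 oligodendrocyte genes in either pool. In a whole tissue, a change in the mix of cell types and a change within cells cannot be told apart.

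The difference between tissues lay in particular intervals of the cluster. Between the start site of Hoxd4 and the left end of the Haglr gene model, an interval that holds most of the Hoxd3 model, adipose had 33.2% of reads methylated in the BPA pool and 31% in the control pool, over 201 sites read in all tissues. The same sites had 5% in the BPA pool and 4.28% in the control pool of hypothalamus, and 5.72% in the BPA pool and 5.22% in the control pool of liver. Between the start sites of Hoxd10 and Hoxd9, adipose had 27.1% in the BPA pool and 28.2% in the control pool. The same 39 sites had 3.66% in the BPA pool and 2.91% in the control pool of hypothalamus, and 4.48% in the BPA pool and 4.47% in the control pool of liver. These 2 intervals flank the block of Hoxd9 and Hoxd8, whose gene bodies were low.

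Toward the posterior end levels were low in all 3 tissues. Between Hoxd13 and Hoxd12 adipose had 2.59% in the BPA pool and 2.54% in the control pool, hypothalamus had 2.13% in the BPA pool and 1.73% in the control pool, and liver had 2.22% in the BPA pool and 2.24% in the control pool. Between Hoxd12 and Hoxd11 adipose had 6.43% in the BPA pool and 6.71% in the control pool, hypothalamus had 5.05% in the BPA pool and 3.63% in the control pool, and liver had 5.68% in the BPA pool and 5.67% in the control pool. The anterior end beyond the Hoxd1 start site was as low, at 2.25% in the BPA pool and 2.26% in the control pool of adipose. Between Hoxd8 and Hoxd3 adipose had 0.854% in the BPA pool and 1.04% in the control pool, hypothalamus had 1.2% in the BPA pool and 1.02% in the control pool, and liver had 1.28% in the BPA pool and 1.49% in the control pool.

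**Figure D2:**
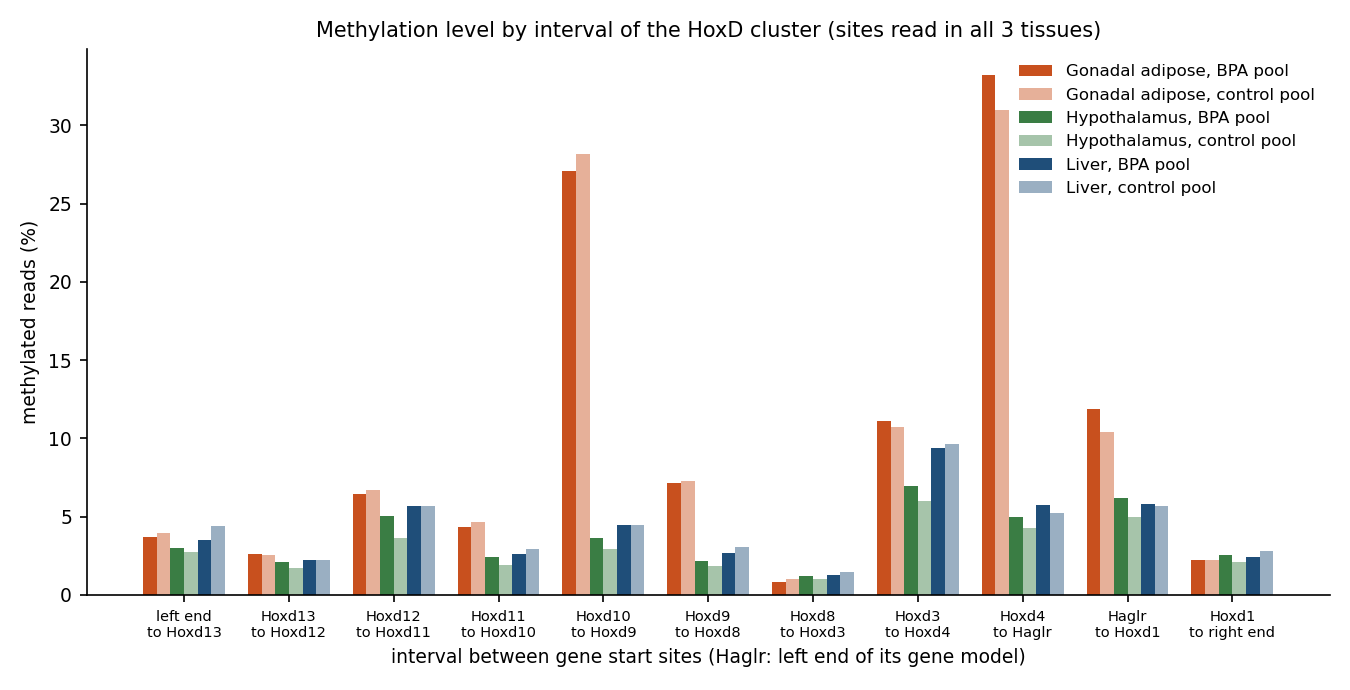
Methylated reads (%) in each interval between neighbouring start sites of the HoxD cluster, over sites read in all 3 tissues; dark bars are BPA pools and light bars control pools of each tissue, with no error bar because each bar is 1 pool. Adipose stands at 33.2% (BPA) and 31% (control) between Hoxd4 and Haglr, and at 27.1% (BPA) and 28.2% (control) between Hoxd10 and Hoxd9.

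To place the methylated sites more finely, sites read in all 3 tissues were joined into runs where neighbours lay at most 100 bp apart. This gave 52 runs of at least 5 sites. In adipose, 17 runs had at least 20% of reads methylated in the BPA pool and 15 in the control pool, and all 15 were among the 17. No run reached 20% in either pool of hypothalamus or liver. Of the 15 runs, 11 lay between Hoxd4 and Haglr, 2 between Hoxd9 and Hoxd8, 1 between Hoxd10 and Hoxd9 and 1 between Haglr and Hoxd1. The methylated runs of adipose thus lay mostly in the anterior part of the cluster. The remaining run between Hoxd4 and Haglr (74740331 to 74740967) had 20.5% in the BPA pool and 18.8% in the control pool of adipose. A run ends where measured sites end, so its length does not show how far methylation extends. Across these 15 runs the level in the control pools lay between 1.63 and 8.62% in hypothalamus and between 1.93 and 10.1% in liver.

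The highest of these runs in adipose was a stretch of 197 bp with 7 sites near the end of Hoxd3 (74747789 to 74747985). It had 66.3% in the BPA pool and 64.4% in the control pool of adipose, against 10.3% in the BPA pool and 8.62% in the control pool of hypothalamus. Another high run, 102 bp long with 8 sites, lay between Hoxd9 and Hoxd8 (74700798 to 74700899), and had 56.8% in the BPA pool and 58.4% in the control pool of adipose. The same sites had 6.86% in the BPA pool and 9.68% in the control pool of liver. A run of 188 bp with 10 sites between Hoxd10 and Hoxd9 (74696794 to 74696981) had 45.2% in the BPA pool and 49.9% in the control pool of adipose. The next run (74697177 to 74697312) had 23.7% in the BPA pool and 16.4% in the control pool, and 10 sites of the Hoxd9 promoter beyond it (74697675 to 74697789) had 1.37% in the BPA pool and 0.357% in the control pool. Within about 1 kb the level thus stepped down from a partly methylated stretch to the nearly unmethylated start site of Hoxd9.

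Each tissue pair was then tested site by site with Fisher's exact test on pooled reads, adjusted by the Benjamini-Hochberg method over all sites of the genome. Calls required an adjusted p under 0.05 together with a gap of at least 5 percentage points. Such a test compares pools and not animals, and neighbouring CpGs share reads. Against hypothalamus, adipose was called at 272 of 1136 sites in the BPA pools, 267 of them higher and 5 lower, and at 261 of 1136 in the control pools, 260 higher and 1 lower. Over all tested sites 13.4% were called in the BPA pools (3.89% higher and 9.47% lower in adipose) and 12.9% in the control pools (3.79% higher and 9.08% lower). In the genome adipose was thus lower than hypothalamus at most called sites, while within HoxD it was higher at nearly all. However, 95% of HoxD sites were under 10% in hypothalamus, which left adipose little room to be lower by 5 points. HoxD was not compared here with other sites of a like hypothalamus level. The BPA and control calls shared 233 sites, which is 85.7% of the BPA list and 89.3% of the control list, all in the same direction.

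Against liver, adipose was called at 278 of 1120 sites in the BPA pools, 266 higher and 12 lower, and at 263 of 1120 in the control pools, 253 higher and 10 lower. Over all tested sites 15.8% were called in the BPA pools (7.43% higher, 8.34% lower) and 16.5% in the control pools (8.05% higher, 8.42% lower). The BPA and control calls shared 233 sites here too, 83.8% of the BPA list and 88.6% of the control list, with the same direction at each. The comparisons against hypothalamus and against liver use the same adipose pools and are not independent of each other. Between Hoxd4 and Haglr, adipose was higher than hypothalamus at 185 of 213 sites in the BPA pools and 174 of 213 in the control pools, with none lower. In that interval adipose was higher than liver at 191 of 225 sites in the BPA pools and 176 of 225 in the control pools, again with none lower.

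Hypothalamus and liver differed little from each other in the cluster. Hypothalamus was called at 28 of 1064 sites against liver in the BPA pools, 8 higher and 20 lower, where 16.7% of all tested sites passed (11.1% higher and 5.63% lower). In the control pools 31 sites were called, 8 higher and 23 lower in hypothalamus, where 16.9% of all tested sites were called (11.2% higher and 5.72% lower). The 2 lists shared 10 sites, 35.7% of the BPA list and 32.3% of the control list. Among the calls, 2 sites in the BPA pools and 0 in the control pools differed by 20 points or more.

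The site with the largest difference against hypothalamus in the control pools was position 74701042, which lies 834 bp past Hoxd9 and 1961 bp before the noncoding gene Gm38462. It had 67.2% of 58 reads methylated in the BPA pool and 81% of 21 reads in the control pool of adipose. In hypothalamus it had 3.85% of 26 reads in the BPA pool and 8% of 25 reads in the control pool. These are shallow pools, and the difference was 63.4 points in the BPA pools and 73 points in the control pools (adjusted p 5.01e-07 and 1.16e-05, Fisher's exact test). A deeper example is position 74696931, 1825 bp past Hoxd10 and 832 bp before Hoxd9. It had 37.7% of 329 reads in the BPA pool and 53.3% of 272 reads in the control pool of adipose, against 5.67% of 300 reads in the BPA pool and 3.47% of 288 reads in the control pool of hypothalamus. A few sites were high everywhere: position 74754445, inside Haglr, had 95.5% in the BPA pool and 97.9% in the control pool of adipose, and 74.4% in the BPA pool and 70.7% in the control pool of hypothalamus.

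By gene, the adipose level was highest in Hoxd4 and Hoxd3, whose RefSeq models overlap. Over 47 sites Hoxd4 had 43.7% in the BPA pool and 39.8% in the control pool of adipose. In liver Hoxd4 had 43 sites, with 8.08% in the BPA pool and 7.31% in the control pool. Over 266 sites Hoxd3, an anterior homeodomain factor, had 31.3% in the BPA pool and 29.1% in the control pool of adipose. In liver Hoxd3 had 254 sites, with 6.03% in the BPA pool and 5.65% in the control pool. Haglr, an antisense long noncoding RNA between Hoxd3 and Hoxd1, had 12% in the BPA pool and 10.4% in the control pool of adipose over 111 sites. In hypothalamus Haglr had 6.06% in the BPA pool and 4.97% in the control pool over 110 sites. The neighbouring Hoxd1, the most anterior gene, had 2.21% in the BPA pool and 2.25% in the control pool of adipose.

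The posterior genes were low in all tissues. Hoxd13, which patterns digits and genitalia, had 1.91% in the BPA pool and 1.96% in the control pool of adipose over 66 sites. Hoxd12, its neighbour in limb patterning, had 6.79% in the BPA pool and 6.92% in the control pool of adipose. Hoxd11, which acts in the forearm and kidney, had 2.92% in the BPA pool and 3.43% in the control pool of adipose over 173 sites. Hoxd10 had 6.53% in the BPA pool and 6.57% in the control pool, and was called higher than hypothalamus at 10 of 73 sites in the BPA pools and at 10 of 73 in the control pools. Hoxd9 had 1.31% in the BPA pool and 1.45% in the control pool of adipose, and Hoxd8 had 0.836% in the BPA pool and 1.05% in the control pool. Evx2, a homeobox gene at the posterior border, had 3.52% in the BPA pool and 3.81% in the control pool of adipose over 201 sites. The noncoding gene Gm31790, between Evx2 and Hoxd13, had 1 member site, in adipose alone, with 15.4% of 26 reads in the BPA pool and 16.7% of 18 reads in the control pool. The microRNA gene Mir10b, inside the Hoxd4 model, had no member site.

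The question of BPA exposure was asked within each tissue with the deposited Fisher's exact test p-values, adjusted over all sites of the tissue. In gonadal adipose 11 of 1274 HoxD sites were called, or 0.863%, where 0.535% of all tested sites were called. Of these, 8 were higher in the BPA pool, against 0.252% of all tested sites, and 3 were lower, against 0.283%. All 8 higher sites lay within the Hoxd3 gene model, in the interval between Hoxd4 and Haglr. Of the lower sites 2 lay in Evx2 and 1 between Hoxd10 and Hoxd9. None of the 11 passed once p-values were scaled by the mean excess of squared differences, a factor of 2.02. That mean was taken over tested adipose sites with at least 5 methylated and 5 unmethylated reads expected in each pool. Of all tested adipose sites 28 of 1876099 passed after this scaling. With only the deepest site of each run of neighbours kept, 0 of 82 HoxD sites were called, beside 4713 of 405445 over the genome. None of the 11 was the site kept for its run, so that setting did not retest them. Whether a site is exonic or intronic is not given, since the gene table used holds gene ends only. At an unadjusted p under 0.05 there were 137 HoxD sites, or 10.8%, close to the 10.1% of all tested sites. Of these, 78 were higher in the BPA pool and 59 lower, beside 4.64% and 5.49% of all tested sites.

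**Figure D3:**
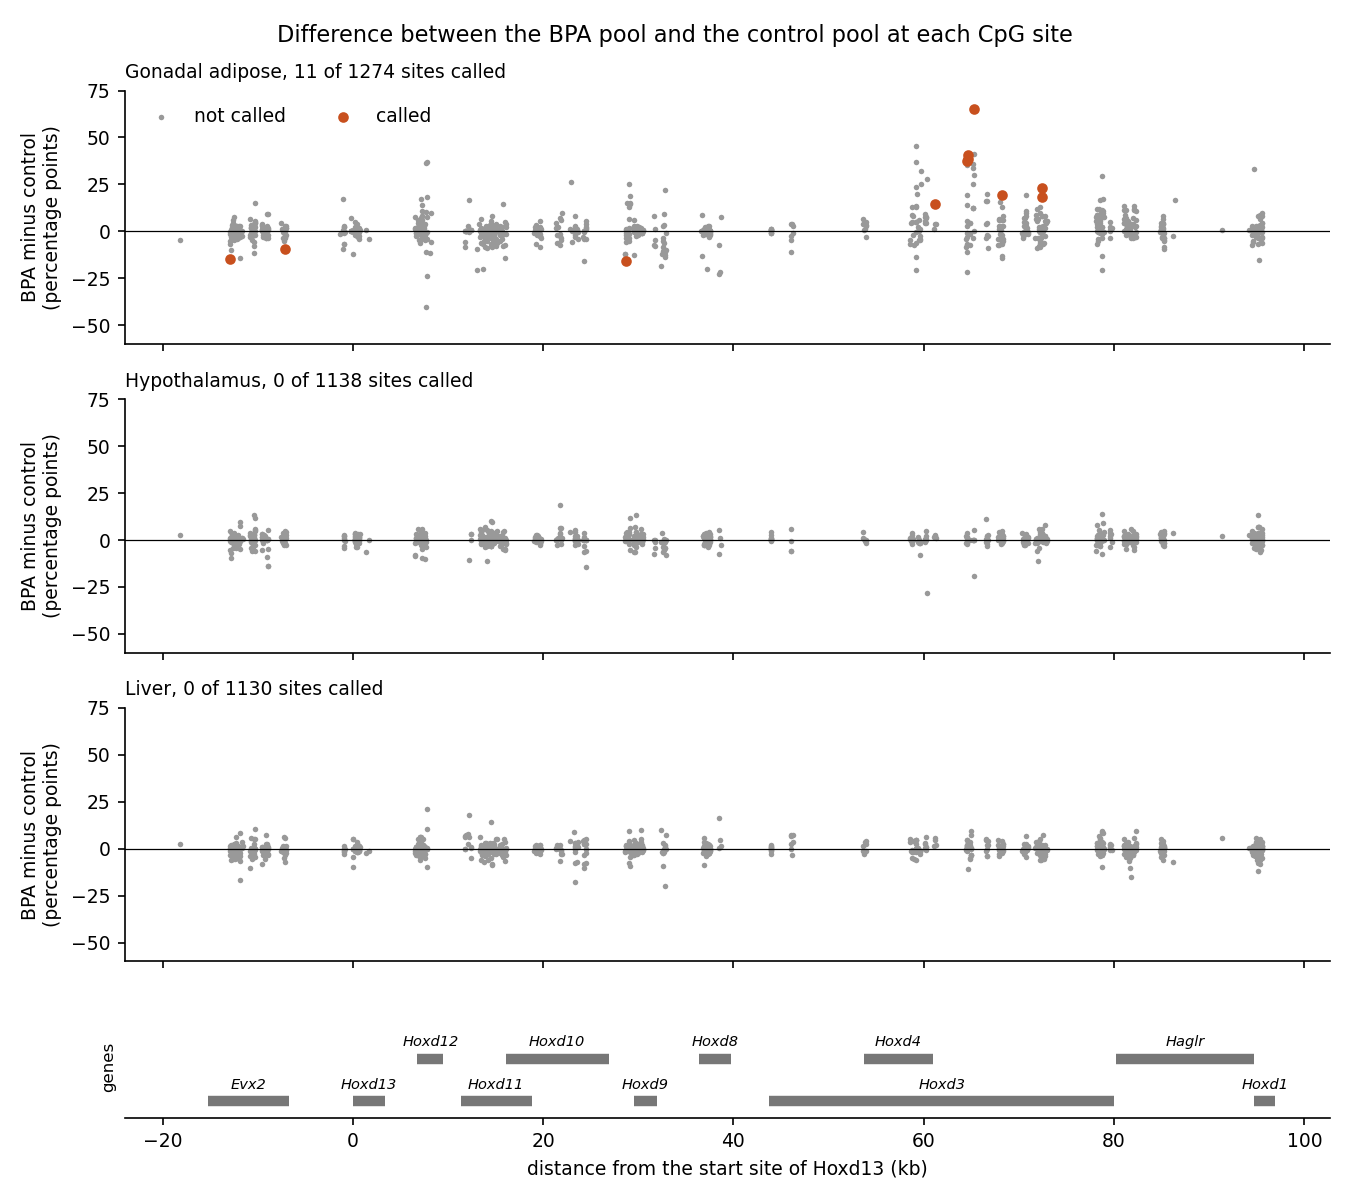
BPA minus control (percentage points) at each CpG site of the HoxD cluster against its distance from the start site of Hoxd13 (kb), in gonadal adipose, hypothalamus and liver; called sites are orange and others grey. The 11 called sites are all in adipose, and 8 of them, all above 0, lie within Hoxd3.

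The called sites with the smallest p were a pair in Hoxd3, 7 bp apart. Intervals here cover counting error only, and PCR copies cannot be told from separate molecules. Position 74740634 had 36.7% of 218 reads methylated in the BPA pool (95% interval 30.3 to 43.5) and 13.4% of 202 reads in the control pool (9 to 18.8). The difference was 23.3 points (15.2 to 31, adjusted p 1.60e-04, Fisher's exact test). Position 74740627 had 25.1% of 219 reads in the BPA pool and 6.9% of 203 reads in the control pool, a difference of 18.2 points (adjusted p 9.69e-04). Each of the pair had 6 neighbours within 60 bp, the other of the pair included, of which 5 were higher and 1 lower in the BPA pool. Position 74740638 had 28.2% in the BPA pool and 19.8% in the control pool (adjusted p 0.222, Fisher's exact test), and position 74740653 had 25.1% in the BPA pool and 16.6% in the control pool (adjusted p 0.16). Position 74740607 was the lower one, with 10.4% in the BPA pool and 16.9% in the control pool. Over the whole run of 35 sites around the pair, 23 sites were higher and 12 lower in the BPA pool, with 20.5% of reads methylated in the BPA pool and 18.8% in the control pool.

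Position 74736426, also in Hoxd3, had 42.9% of 238 reads in the BPA pool and 23.3% of 210 reads in the control pool, a difference of 19.5 points (adjusted p 0.0112, Fisher's exact test). Its neighbours within 60 bp did not share its direction: 3 of 9 were higher and 6 lower in the BPA pool. Position 74736409 had 34.2% in the BPA pool and 21.2% in the control pool, while position 74736438 had 26.3% in the BPA pool and 40.7% in the control pool. Opposite differences thus stood side by side. Position 74729458 lies in Hoxd3 just past the end of the Hoxd4 model, and had 75.1% of 342 reads in the BPA pool and 60.6% of 312 reads in the control pool (adjusted p 0.0261, Fisher's exact test). All 4 sites of its run were higher in the BPA pool.

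The remaining 4 higher sites rested on few reads, between 16 and 39 a pool. Position 74732897 had 38.5% of 39 reads in the BPA pool and 0% of 34 reads in the control pool, a difference of 38.5 points (21.5 to 54.1, adjusted p 0.0125, Fisher's exact test). With 0 of 34 reads methylated the control level could be as high as 10.3% (95% Clopper-Pearson interval). Position 74732878 had 48.7% of 39 reads in the BPA pool and 7.89% of 38 reads in the control pool, and position 74732828 had 42.9% of 35 reads in the BPA pool and 5.56% of 36 reads in the control pool. The 3 sites lie close together, and each of their neighbours within 60 bp, called ones included, was also higher in the BPA pool. Neighbours so close share reads, so they are not separate observations. Just to their left, 9 sites read more deeply (74732646 to 74732758) had 27% in the BPA pool and 32.3% in the control pool. Of the 16 sites of this run 8 were higher and 8 lower in the BPA pool. Position 74733530 had 77.8% of 18 reads in the BPA pool and 12.5% of 16 reads in the control pool, the largest called difference at 65.3 points (32.4 to 81.3). Its run of 11 sites, with a median of 16 reads in each pool, had 42.6% in the BPA pool and 17.6% in the control pool, with 9 sites higher and 1 lower.

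The 3 lower sites lay toward the posterior end. Position 74655330 in Evx2 had 16.6% of 308 reads in the BPA pool and 31% of 290 reads in the control pool (adjusted p 0.0169, Fisher's exact test). All 5 neighbours within 60 bp were lower in the BPA pool too, by a median of 5.1 points. Position 74661145 in Evx2 had 0% of 151 reads in the BPA pool and 9.32% of 118 reads in the control pool (adjusted p 0.0283). Its 3 neighbours within 60 bp were all higher in the BPA pool, so that this call rested on a single site. Position 74696931, between Hoxd10 and Hoxd9, differed by -15.6 points (-23.4 to -7.63, adjusted p 0.0363, Fisher's exact test). It is the site, given above, at which adipose stood 49.8 points over hypothalamus in the control pools and 32 points in the BPA pools.

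**Figure D4:**
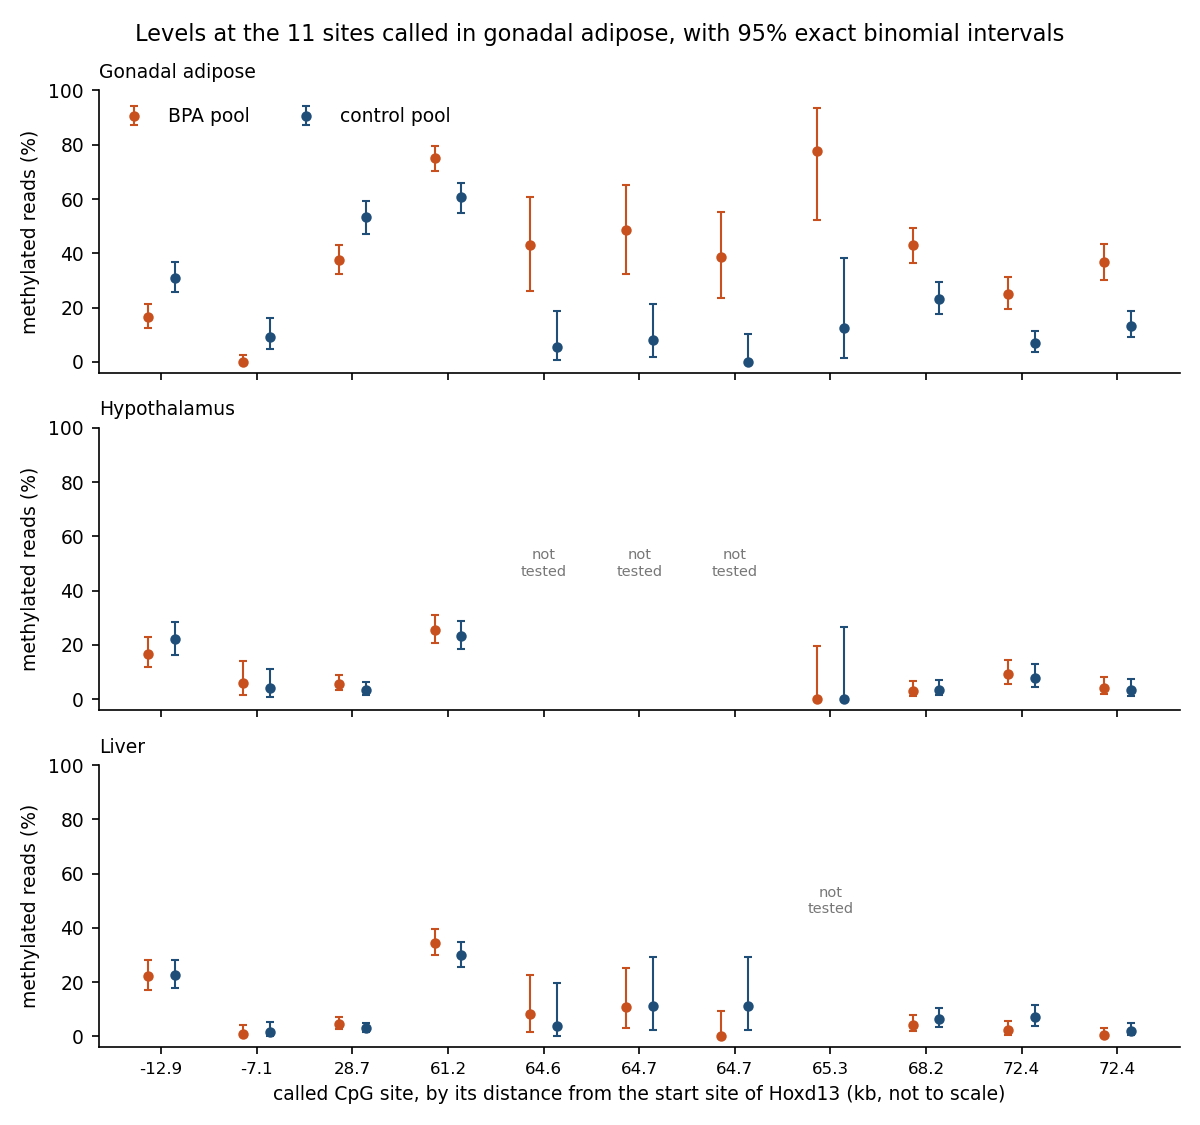
Methylated reads (%) with 95% exact binomial intervals at the 11 sites called in gonadal adipose, in each tissue, ordered by distance from the start site of Hoxd13 (kb); BPA pools are orange and stand left of control pools in blue. In adipose the BPA pool is lower at the first 3 sites and higher at the other 8, while in hypothalamus and liver the intervals of the BPA and control pools overlap at every site tested.

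At the called sites the other tissues showed no called difference. Position 74740634 had 4.26% in the BPA pool and 3.45% in the control pool of hypothalamus, and 0.599% in the BPA pool and 1.9% in the control pool of liver. Position 74740627 had 9.19% in the BPA pool and 7.95% in the control pool of hypothalamus, and 2.31% in the BPA pool and 7.11% in the control pool of liver. The 3 shallow sites from 74732828 to 74732897 were not tested in hypothalamus, and position 74733530 was not tested in liver. Whether the BPA effect differed between tissues was tested itself, by comparing the 2 log odds ratios in a Wald test. No HoxD site passed an adjusted p of 0.05 for adipose against hypothalamus, adipose against liver or hypothalamus against liver, where 0.0266%, 0.0493% and 0.00375% of all tested sites were called. At an unadjusted p under 0.05 the counts were 47 of 1136, 48 of 1120 and 23 of 1064 sites, beside 5.39%, 6.54% and 3.66% of all tested sites. The smallest p was at position 74740627 for adipose against liver, with a difference of log odds ratios of 2.57 (SE 0.629, p 4.35e-05, adjusted p 0.069, Wald test). A site called in adipose and not in another tissue is therefore not shown to differ between them.

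Over all sites, called ones included, more sites were higher than lower in the BPA pool in the anterior part of the cluster. Between Hoxd4 and Haglr 165 of 245 adipose sites were higher and 78 lower in the BPA pool, with a median difference of 2.6 points. Of all tested adipose sites at 20 to 80% in the control pool, 54% were higher in the BPA pool, and of those under 10%, 33% were. In the same interval 33 of the 245 sites were higher and 4 lower at an unadjusted p under 0.05 by Fisher's exact test. Over all tested sites these shares were 4.64% higher and 5.49% lower. The 33 include the 8 sites called higher. Between Haglr and Hoxd1 71 of 115 sites were higher and 32 lower, with a median of 0.723 points. Between the left end and Hoxd13, which holds Evx2, 102 sites were higher and 96 lower, with a median of 0. Over all members of the window the median difference was 0 in adipose, as it was over all tested sites. Of the 15 methylated runs, 11 were higher and 4 lower in the BPA pool. Since sites of a run share reads and each pool is 1 measurement, these counts have no error of their own.

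In the genes without a called adipose site, the site with the smallest p was taken. In Hoxd12, position 74675999 had 40% of 25 reads in the BPA pool and 3.03% of 33 reads in the control pool (adjusted p 0.0657, Fisher's exact test). In Hoxd4, position 74727424 had the same counts, 40% of 25 reads in the BPA pool and 3.03% of 33 reads in the control pool (adjusted p 0.0657). In Hoxd10, position 74687905 had 6.44% of 326 reads in the BPA pool and 15% of 327 reads in the control pool (adjusted p 0.0698). None of these passed the threshold. By Fisher's exact test, the smallest adjusted p was 0.115 in Haglr, 0.14 in Hoxd1, 0.157 in Hoxd11, 0.164 in Hoxd13, 0.236 in Gm14424, 0.333 in Hoxd8 with the overlapping Gm38462, 0.406 in Hoxd9 and 0.543 in Hoxd3os1.

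In hypothalamus no HoxD site was called by Fisher's exact test, where 0.0058% of all tested sites were called (0.0028% upward and 0.00299% downward in the BPA pool), and 22 sites, or 1.93%, had an unadjusted p under 0.05, beside 3.41% of all tested sites. Of these 22, 16 were higher and 6 lower in the BPA pool, beside 1.8% and 1.61% of all tested sites. The smallest p was at position 74687616 in Hoxd10, with 2.77% of 361 reads in the BPA pool and 0% of 345 reads in the control pool, for which the control level could be up to 1.06% (p 0.00187, adjusted p 1, Fisher's exact test). In Hoxd3 the smallest p was at position 74746445, with 10.1% of 169 reads in the BPA pool and 1.94% of 155 reads in the control pool. Of all members, 611 were higher and 379 lower in the BPA pool of hypothalamus, with a median difference of 0.218 points. Among sites under 10% in the control pool, 587 members were higher and 347 lower, beside 293205 and 132311 of all tested sites. A similar lean was present outside the cluster: where both other tissues read under 1%, hypothalamus had 0.868% of reads methylated in the BPA pool and 0.459% in the control pool. The part of incomplete bisulfite conversion in this was not tested.

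In liver no HoxD site was called by Fisher's exact test, where 0.0259% of all tested sites were called (0.0181% upward and 0.0078% downward in the BPA pool), and 38 sites, or 3.36%, had an unadjusted p under 0.05, beside 4.21% of all tested sites. Of these 38, 15 were higher and 23 lower in the BPA pool, beside 2.09% and 2.12% of all tested sites. The smallest p was at position 74750511 in Haglr, with 13.7% of 212 reads in the BPA pool and 4.32% of 278 reads in the control pool, a difference of 9.36 points (4.33 to 14.9, adjusted p 0.263, Fisher's exact test). In Hoxd12 position 74675268 had 8.36% of 299 reads in the BPA pool and 2.33% of 344 reads in the control pool (adjusted p 0.384). Of all members, 474 were higher and 563 lower in the BPA pool of liver. Among sites under 10% in the control pool, 451 members were higher and 509 lower, beside 203392 and 249191 of all tested sites. Where both other tissues read under 1%, liver had 0.578% in the BPA pool and 0.755% in the control pool, and adipose had 0.46% in the BPA pool and 0.459% in the control pool.

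Calls were also counted by the level of the site. In the adipose control pool, sites of 20 to 80% lay farther apart, with a median of 6 other members within 100 bp, against 13 for sites under 10%. Among the 237 sites of 20 to 80%, 4 were called between BPA and control, or 1.69%, beside 1.2% of all tested sites of that class. Among the 927 sites under 10%, 5 were called, or 0.539%, beside 0.085% of all tested sites of that class. Those 5 comprise 4 sites of Hoxd3 and 1 of Evx2. Of the Hoxd3 sites, 3 are the shallow neighbours from 74732828 to 74732897, which share reads and are not separate observations. The classes were set by the control level, which is itself part of the difference called.

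The other Hox clusters were read the same way, each from its outermost Hox genes with 5 kb on either side. In that span HoxD had 8 sites called higher and 1 lower in the BPA pool of adipose among 1072 sites, or 0.84%. HoxA had 5 higher and 2 lower among 1166 sites, HoxB had 1 higher and 1 lower among 1061, and HoxC had none among 843. The HoxD level in adipose was 13.1% in the BPA pool and 12.6% in the control pool, within the range of the other clusters, which had 8.99 to 13.9% in the BPA pools and 9.57 to 13.6% in the control pools. Adipose was called higher than hypothalamus in the BPA pools at 27.6% of HoxD sites, against 21.3% in HoxA, 20.9% in HoxB and 16.9% in HoxC. In the control pools these shares were 26.6% in HoxD, 22% in HoxA, 21.2% in HoxB and 18.7% in HoxC. Higher methylation in adipose was therefore shared by all 4 clusters, and whether HoxD differs from the others was not tested. In hypothalamus and liver no BPA difference was called in any of the 4 clusters.

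**Figure D5:**
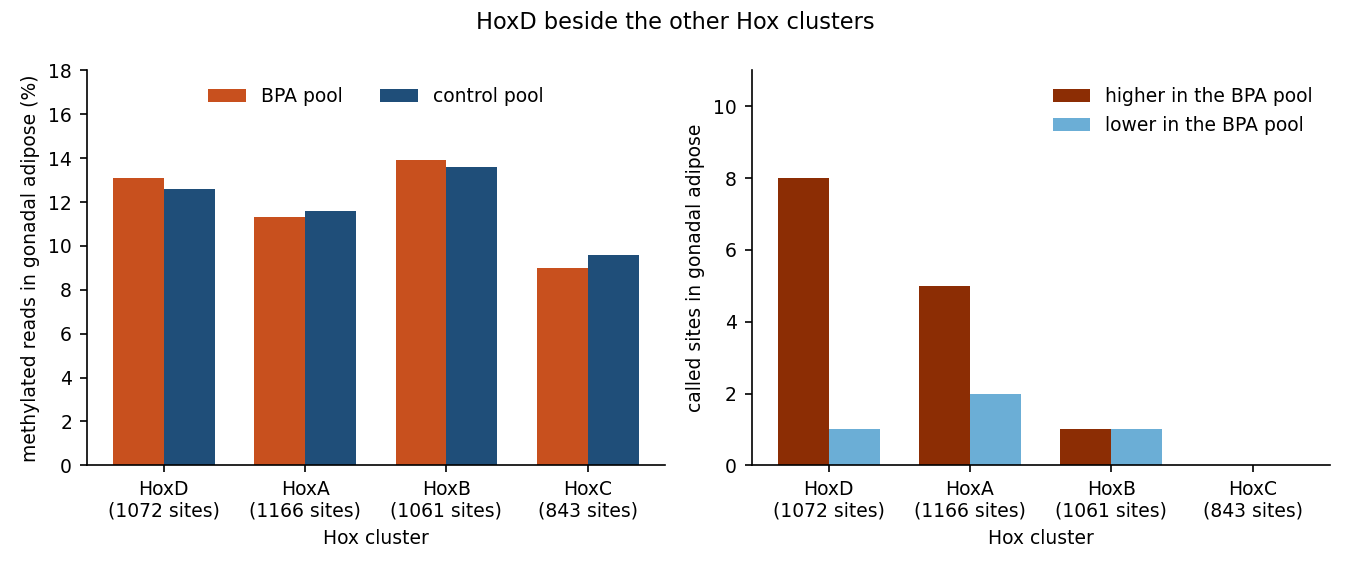
Left, methylated reads in gonadal adipose (%) in HoxD and the other 3 Hox clusters, BPA pool left of control pool. Right, number of called BPA differences per cluster in adipose, split by direction; HoxD has 8 higher and 1 lower among 1072 sites, and HoxC has none among 843.

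Genes that act on the cluster were counted in adipose as well. Polycomb repressive complex genes, which keep Hox genes silent, had 11 sites called higher and 5 lower in the BPA pool, in 11 of 31 genes, or 0.529% of their sites. Trithorax and H3K27 demethylase genes, which oppose Polycomb, had 3 higher and 1 lower, in 3 of 10 genes. Hox cofactor genes, whose proteins bind DNA with Hox proteins, had 2 higher and none lower, in 2 of 9 genes. These shares, 0.529%, 0.51% and 0.179% of sites, lay near or under the 0.535% of all tested sites. Genes of upstream regulators of the cluster had 1 site higher and 14 lower, in 5 of 13 genes, or 1.04% of their sites. Of those 15 called sites 10 lay in Shh, which encodes the signal that polarizes the limb bud, with 1 higher and 9 lower in the BPA pool. Shh had 6.68% of reads methylated in the BPA pool and 8.77% in the control pool of adipose over 249 sites. Of 11 genes flanking the cluster, only Evx2 held called sites, the 2 lower ones given above. The median site difference was 0 in each of these lists, as over all tested sites. In hypothalamus none of these lists had a called site, and in liver 1 Hox cofactor site was called higher.

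Markers of cell types that the adipose samples could hold were read beside these results. Summed over their sites, leukocyte markers had 45.3% in the BPA pool and 47.2% in the control pool of adipose, and endothelium markers 50.2% in the BPA pool and 50.4% in the control pool. Adipocyte markers had 44% in the BPA pool and 43.6% in the control pool, and epididymis and testis markers 50.5% in the BPA pool and 51.5% in the control pool. In endothelium markers 3 of 486 adipose sites were called, all lower in the BPA pool, or 0.617%, and in adipocyte markers 1 of 326 was called, higher, or 0.307%, beside the 0.535% of all tested sites. None of 184 sites was called in leukocyte markers, and none of 91 in epididymis and testis markers. The part of cell mix in the HoxD differences was not tested.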

How the data were processed

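Reads were aligned with BSMAP to GRCm38 (mm10), per the submitters' processing notes; the BSMAP version, filters and conversion rate are not given in the sources used here. The deposited tables, 1 per tissue, give for each CpG the read count of each pool of 3 samples, the fraction of those reads methylated, written to 3 significant digits, and a p-value from Fisher's exact test, per the file headers. The authors also deposited a credible difference of the methylation ratio, used only as an alternative. Methylated reads were recovered as fraction times count, and positions were turned from 0-based to 1-based. Fisher p-values recomputed from the counts fell within 1% of the deposited ones at 99.7% of adipose, 99.9% of hypothalamus and 99.7% of liver sites.

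Sites with at least 10 reads in both pools were kept, and p-values were adjusted by the Benjamini-Hochberg method over all kept sites of a tissue. Tissues were compared with Fisher's exact test, and BPA effects between tissues with a Wald test of log odds ratios after adding 0.5 to each cell. Tests were tried on simulated counts with counting error alone, so the trial did not cover the excess of 2.02 in adipose. Every RefSeq gene of the window with a member site is named, with its called sites, or else its site of smallest p where that adds to the account. Site levels carry 95% Clopper-Pearson intervals and differences Newcombe intervals. Members and gene lists were chosen with earlier results of these data known. Work used python 3.11.15, numpy 2.4.6, pandas 2.3.3, scipy 1.17.1, numba 0.67.0 and matplotlib 3.10.9.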

Additional observations from a re-analysis of the deposited data

How the results depend on the processing

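Of 48 recomputed values of the main comparisons, 35 stayed close (counts within 1.5 times) and 13 moved. The 11 adipose sites called between BPA and control fell to 0 with p scaled by the mean excess of the squared difference. That excess was 2.02 over sites with enough expected reads, as given above, where counting error alone gives 1. Of all tested adipose sites 28 of 1876099 passed after the scaling. With the deepest site kept per run of neighbours at most 100 bp apart, 0 of 82 sites were called (fewer sites tested). Over the genome 4713 of 405445 were called at this setting. None of the 11 was among the 82, so this setting did not retest them. With the authors' credible difference of at least 5 points in place of the adjusted p, 46 of 1274 adipose sites passed. Of these, 32 were higher in the BPA pool, and over all tested adipose sites 56171 of 1876099 passed. In hypothalamus 1 of 1138 HoxD sites passed, against 0 as reported, beside 13458 of 1569349 tested sites. In liver 2 of 1130 HoxD sites passed, against 0 as reported, beside 16209 of 1628817 tested sites. With a minimum of 20 points, adipose against hypothalamus had 168 calls in place of 261, adipose against liver 172 in place of 263 and hypothalamus against liver 0 in place of 31, a higher threshold. Over all tested sites 105114 of 1586685, 125076 of 1639560 and 125254 of 1531283 passed at 20 points. With 1 site per run the same pairs had 28 of 75, 29 of 79 and 4 of 75 HoxD sites called. Of the last 4, 3 were higher and 1 lower in hypothalamus. Over the genome 69422 of 333056, 94322 of 362448 and 92698 of 329582 sites were called with 1 site per run. The window level, BPA minus control, was 0.428 points in adipose and 0.564 in hypothalamus by reads, and 0.986 in adipose and 0.407 in hypothalamus with each site weighted equally; the cause was not tested. No paired analysis was possible because the tables hold pools and not samples, and no replicate could be left out. Of the 11 adipose sites 4 had under 100 reads in a pool, and 10 were called with a minimum of 20 reads.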
